A study of Mus musculus with 7 samples.

Results

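The histone genes of the mouse kidney were examined as 1 set: the protein-coding genes with symbols starting Hist1h, Hist2h, Hist3h, Hist4h, H2af or H3f3, plus H1f0 and H1fx. The rule found 80 of the 53465 genes in the count table. Of these, 67 were clustered genes, which carry a Hist prefix, and 13 were variant genes. Kidney tissue came from 3 MRL/lpr mice given vehicle and 4 MRL/lpr mice given AZD1152, a prodrug of an inhibitor of Aurora kinase B, the kinase of the chromosomal passenger complex that phosphorylates histone H3 in mitosis. MRL/lpr is a strain with a defective Fas gene and a lupus-like disease with nephritis, and all 7 mice carried it, so the comparison holds no mouse of another strain. Dose, schedule and age are not stated in the labels.

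Histones H2A, H2B, H3 and H4 form the nucleosome core around which DNA is wrapped, and H1 binds the linker DNA between nucleosomes. The clustered genes supply histones during DNA replication, and their mRNAs characteristically end in a conserved stem-loop bound by Slbp instead of a poly(A) tail. The variant genes are scattered, are mostly expressed throughout the cell cycle, and give polyadenylated mRNAs for histones such as H2A.Z, macroH2A and the replication-independent form of H3. Some clustered genes also give polyadenylated transcripts in cells that no longer divide. Per the labels' protocols, these libraries were enriched with oligo(dT) beads, so the clustered genes were measured through whatever transcripts such beads retained.

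The libraries held 14692113 to 17036862 counts. Kidney markers were detected in every library, among them Lrp2 and Slc34a1 of the proximal tubule and Aqp2 of the collecting duct. Of 7 kidney markers, 1 was called, Slc34a1, which was higher with AZD1152 (log2 fold change 0.67 ± 0.15, adjusted p = 0.0330, edgeR). The 7 summed to 9484 to 10110 CPM with vehicle and 10777 to 12076 CPM with AZD1152. That sum followed Slc34a1, whose mean was 3104 CPM with vehicle and 4956 CPM with AZD1152. The kidney markers did not move together, since 4 of the 7 estimates were above 0. Lrp2 had means of 2675 and 2945 CPM, and Umod had 2873 and 2279 CPM. Summed over 15 leukocyte markers, the level was 1043 to 1348 CPM (counts scaled to library size and TMM factors) with vehicle and 479 to 691 CPM with AZD1152. By edgeR's quasi-likelihood test with Benjamini-Hochberg adjustment over 15774 genes, 11 of the 15 leukocyte markers were lower with AZD1152 and 0 were higher. Of all genes tested, 4.81% were called lower and 3.02% higher. In a piece of kidney, fewer cells of a type and less RNA per cell cannot be told apart, and the part of these shifts in any histone value was not tested.

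The stem-loop was looked for first, because it is the element that sets most clustered histone mRNAs apart. A 16-base pattern was used (GG, any 2 bases, CTTTT, any 1 base, A, any 2 bases, GCC). It was searched on the coding strand after the stop codon in the GENCODE M21 transcripts (GRCm38). In the histone genes the search covered the whole annotated 3′ end. In other coding genes it covered the first 100 bases, in transcripts with at least 100 annotated bases there. A match was found in 42 of the 67 clustered genes, in 1 of the 13 variant genes (H2afx), and in 2 of 20126 other coding genes (0.00994%). The matches began 22 to 59 bases after the stop codon. Of the 25 clustered genes without a match, 17 had fewer than 60 annotated bases after the stop codon, so the element could lie past the annotated end. Hist1h2bc, Hist1h2bq, Hist1h2br and Hist2h2be had no match, although their longest annotated ends held 742, 1608, 1803 and 2192 bases. In Hist1h2bc, Hist1h2bq and Hist1h2br these ends belong to spliced transcript models. Only transcript sequence was searched, so an element in a spliced-out stretch would be missed. Hist1h3g, Hist1h4a, Hist1h4b and Hist1h4j also had no match, with longest annotated ends of 95, 154, 77 and 430 bases. Hist1h2bc and Hist1h2bq are among the genes called below. The sequences below, in capitals where the motif matched and with 5 flanking bases on each side in lower case, show the element in 2 H4 genes that are compared later, in the abundant H1 gene, in an H2A gene with 0 counts and in H2afx.
Hist1h4c (chr13:23698089-23698104, minus strand): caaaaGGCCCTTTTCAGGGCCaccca
Hist1h4i (chr13:22040966-22040981, minus strand): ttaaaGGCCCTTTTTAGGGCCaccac
Hist1h1c (chr13:23739512-23739527, plus strand): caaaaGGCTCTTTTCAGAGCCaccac
Hist1h2ab (chr13:23751572-23751587, plus strand): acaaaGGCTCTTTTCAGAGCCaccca
H2afx (chr9:44335240-44335255, plus strand): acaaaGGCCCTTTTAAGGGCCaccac

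The stem-loops fell into a form found in H4 genes and a form found in the other classes. All 9 H4 matches read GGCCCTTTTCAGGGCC (7 genes) or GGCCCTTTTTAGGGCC (2 genes). The 33 matches of clustered H1, H2A, H2B and H3 genes read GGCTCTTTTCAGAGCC (26 genes), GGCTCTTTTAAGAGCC (6 genes) or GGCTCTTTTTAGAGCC (1 gene). The stem of H2afx was of the H4 form. Hist1h2ab shared its 16 motif bases with Hist1h1c, yet Hist1h2ab had 0 counts in all 7 libraries and Hist1h1c had 10251.

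A few clustered genes gave nearly all of the clustered signal. Over the 7 libraries the 67 clustered genes together had 27658 counts and the 13 variant genes had 91071. Hist1h2bc, an H2B gene, held 42.9% of the clustered counts and Hist1h1c, a linker histone gene, held 37.1%, and the pair made up 80.0%. Hist1h4i followed with 5.45% and Hist2h2be with 4.32%. At the other end, 25 clustered genes had 0 counts in every library, and 3 counts, the limit that a count of 0 allows, correspond to 0.166 to 0.212 CPM.

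Undetected genes were most frequent in the H2A class. No count was recorded for 14 of 18 H2A genes, 6 of 18 H2B genes, 2 of 12 H3 genes, 2 of 13 H4 genes and 1 of 6 H1 genes. All 18 H2A genes had exons that overlapped an annotated gene on the opposite strand, while most other clustered genes overlapped none. The strand setting of the read counter is not stated, and the part of such overlaps in the missing counts was not tested. The filter on low counts was passed by 14 clustered genes, of which 2 were H1, 2 H2A, 6 H2B, 1 H3 and 3 H4. The 53 clustered genes that did not pass had 471 counts together, at a summed 4.09 ± 0.402 CPM with vehicle (SD, n = 3) and 4.15 ± 0.708 CPM with AZD1152 (SD, n = 4). Hist2h4, with 50 counts, was the highest of those left out, and Hist1h2ac, with 55, was the lowest that passed. Some genes among the highest of their class per kilobase were still close to absence, such as Hist1h1a with 7 counts, Hist1h2ah with 7, Hist1h3c with 10 and Hist1h3d with 22 over all libraries. Among the variants, 9 passed the filter, H2afb1, H2afb2 and H2afb3 had 0 counts, and the linker histone gene H1fx had 8.

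Clustered genes that passed the filter were mostly those with a long annotated 3′ end. Counts were not divided by length here, and a longer annotated end also adds length over which reads are counted. Of 24 clustered genes with over 200 annotated bases after the stop codon, 12 passed the filter and 1, Hist2h3c1, had 0 counts. Of 43 with 200 bases or less, 2 passed, Hist1h2bk and Hist1h4h, and 24 had 0 counts. The median annotated end was 1044.5 bases in the 14 genes that passed and 57.0 bases in the 25 genes with 0 counts. The relation had exceptions, since Hist1h1d with 4931 annotated bases had 32 counts and Hist4h4 with 2515 had 8. An annotated end longer than the stem-loop is itself a record of transcripts seen elsewhere, so this is a description of the annotation beside these counts.

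**Figure D1:**
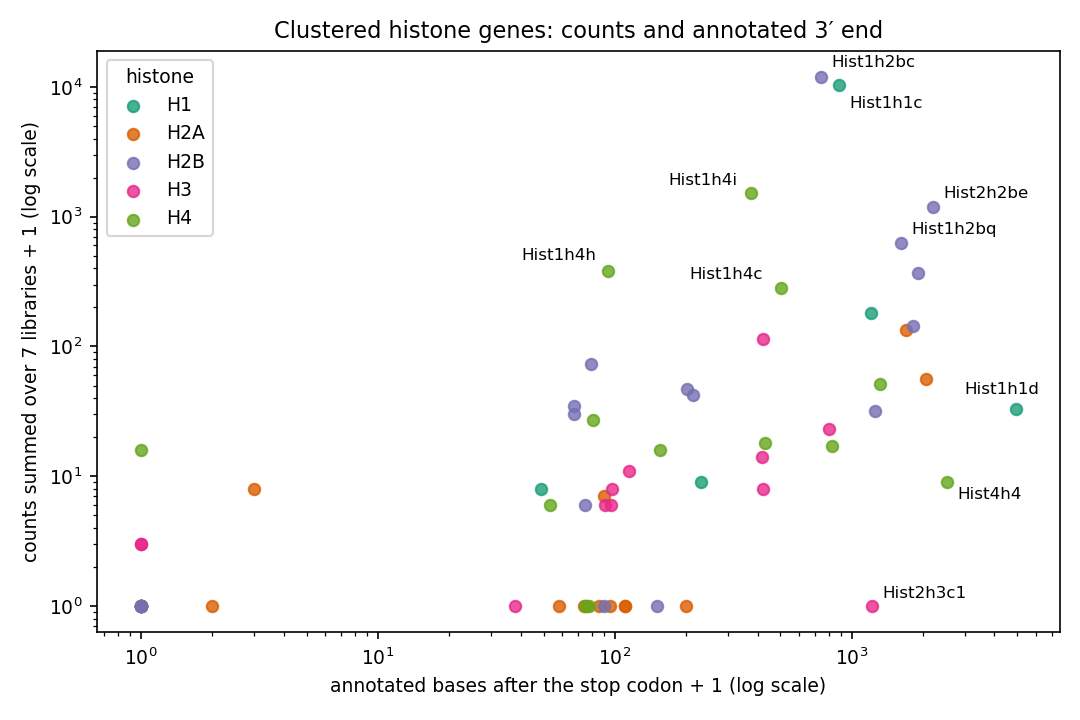
Each point is 1 of the 67 clustered histone genes, with the longest annotated stretch after the stop codon in bases plus 1 on the x axis and counts summed over 7 libraries plus 1 on the y axis, both on log scales, coloured by histone class. Genes with the most counts, such as Hist1h2bc and Hist1h1c, lie to the right, and most genes with 0 counts lie at 200 bases or less.

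Sequence sharing also differed between detected and undetected clustered genes. Each transcript was divided into overlapping stretches of 50 bases, and a stretch was called unique if no other gene's GENCODE M21 transcript contained it. The median share of unique stretches was 42.0% in the genes with 0 counts and 69.2% in those that passed the filter. Hist1h2bq was the extreme among the tested genes, with 2.7% unique stretches, because 97.3% of its stretches also occurred in Hist1h2br. The labels do not say how reads that fit several genes were counted, so counts of near-identical copies are uncertain.

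Per kilobase of annotated exon, the scale on which levels of different genes can be set side by side, H1f0 was highest of all 80 genes at 108 CPM per kilobase, as a mean over the 7 libraries. H1f0 codes for a linker histone typical of cells that have stopped dividing. Hist1h2bc at 91.0 CPM per kilobase and H3f3b at 90.6 were next to each other, followed by Hist1h1c at 57.7, H2afz at 52.0 and H2afv at 34.9. Hist1h4i at 18.4 and H3f3a at 18.2 came after them, and the other genes were at 9.41 CPM per kilobase, the value of H2afy, or lower. Exon length was taken as the union of all annotated exons, so genes with many transcript models, such as H2afy, have their level per kilobase understated. For H3f3b the union held 2976 bases, against 1993 and 2514 in its coding transcripts. For H1f0 it held 2055 bases, the length of its transcript. The first place of H1f0 over H3f3b can therefore depend on the length used.

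With AZD1152, 4 histone genes were higher and 0 were lower at an adjusted p under 0.05. They were the clustered genes Hist1h4c, Hist1h2bq and Hist1h2bc and the variant gene H2afv. Of all 15774 genes tested, 3.02% were called higher and 4.81% lower, against 4 of the 23 histone genes tested called higher. At an unadjusted p under 0.05 there were 6 histone genes, the others being Hist1h4h and Hist1h4i, so 6 of 23 stood beside 24.8% of all genes. The 14 clustered genes tested had log2 fold changes with a median of 0.35, of which 12 were above 0. The 9 variant genes tested had a median of 0.06, with 5 above 0, and the median of all genes was -0.0006, while 49.9% of all genes had an estimate above 0. DESeq2 and limma-voom also called 4 higher and 0 lower, and no histone gene had a lower estimate at an unadjusted p under 0.05. The shares of all genes given above are those of edgeR. DESeq2 called more genes than edgeR in both directions over the whole table, so its counts stand beside larger shares. Scaling by library totals, which shifted the median of all genes by -0.15, left Hist1h4c as the 1 gene called higher and H3f3b as 1 called lower, and leaving out 1 library left 0 or 1 called. The clustered median was 0.20 with library totals, 0.21 with no filter and 0.19 without vehicle 3, and the variant median was -0.094 with library totals. Since a gene can pass the filter through 1 group alone, these are counts over tested genes and not over all members.

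Groups without overlap were counted among the histone genes. Higher in all AZD1152 libraries were 5 of the 23 tested, Hist1h4c, Hist1h4h, Hist1h2bq, Hist1h2bc and H2afv, against 11.2% of all genes. Lower in all was 1, H3f3b, against 11.6% of all genes.

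**Figure D2:**
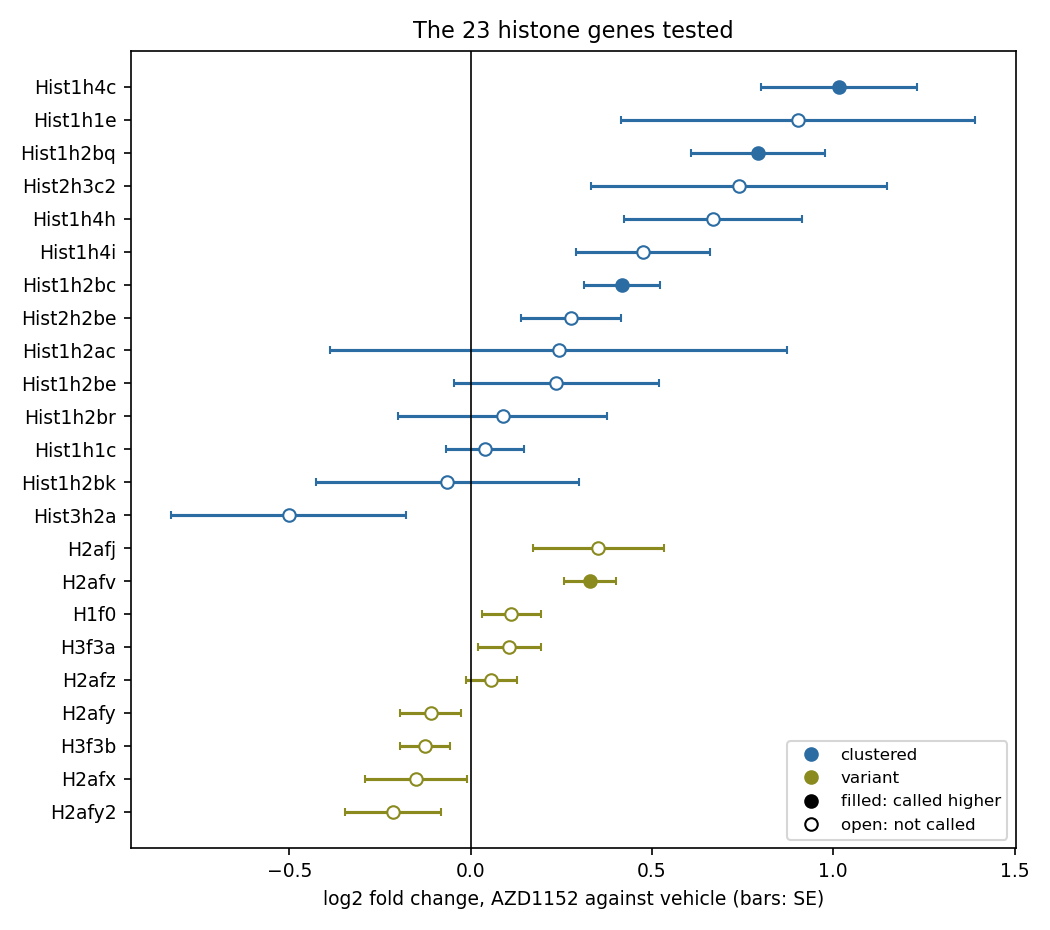
Points show the log2 fold change of AZD1152 against vehicle for the 23 histone genes tested, with bars for the standard error, blue for clustered and olive for variant genes, and filled points for genes called higher. Most clustered genes lie to the right of 0, from Hist3h2a at -0.50 to Hist1h4c at 1.02, and the variant genes lie between -0.21 and 0.35.

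The clustered H4 genes had the largest call. H4 pairs with H3 in the core of the nucleosome, and all clustered H4 genes code for a nearly invariant protein. Hist1h4c stood at 1.63, 1.82 and 1.33 CPM in the 3 vehicle libraries and at 3.69, 3.25, 2.87 and 3.11 CPM in the 4 AZD1152 libraries. The lowest AZD1152 library lay above the highest vehicle library, with a log2 fold change of 1.02 ± 0.21 (SE) and an adjusted p of 0.0271 by edgeR's quasi-likelihood test. The gene lies on GRCm38 chr13:23697635-23698454 with no overlapping exon of another gene, and 80.4% of its 50-base stretches were unique. It was called without vehicle 2 (adjusted p = 0.0424, edgeR) and without AZD1152 3 (0.0434), and not without any of the other 5 libraries, where adjusted p was 0.0502 to 0.109.

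The other two H4 genes tested had estimates in the same direction that were not called. Hist1h4h stood at 1.80, 2.74 and 3.05 CPM with vehicle and at 4.83, 3.25, 3.64 and 4.39 CPM with AZD1152. Its groups did not overlap, although AZD1152 2 was close to vehicle 3, and the log2 fold change was 0.67 ± 0.25 with an adjusted p of 0.133 by edgeR. Hist1h4i, the most abundant clustered H4 gene, stood at 11.9, 11.8 and 9.09 CPM with vehicle and at 14.0, 11.3, 17.5 and 18.2 CPM with AZD1152. AZD1152 2 lay below 2 of the vehicle libraries, and the log2 fold change was 0.48 ± 0.18 with an adjusted p of 0.150 by edgeR. Summed over all 13 clustered H4 genes, the level was 16.5 ± 1.45 CPM with vehicle (SD, n = 3) and 23.7 ± 3.34 CPM with AZD1152 (SD, n = 4), a ratio of 1.44.

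Both calls among the H2B genes were higher with AZD1152. H2B pairs with H2A in the nucleosome. Hist1h2bq stood at 4.19, 3.54 and 4.16 CPM with vehicle and at 6.22, 5.57, 7.85 and 7.85 CPM with AZD1152. The groups did not overlap, with AZD1152 3 and 4 the highest, and the log2 fold change was 0.79 ± 0.18 with an adjusted p of 0.0370 by edgeR. Its near-copy Hist1h2br stood between 0.931 and 1.59 CPM in all libraries, with a log2 fold change of 0.09 ± 0.29. The sum of both was 5.17 ± 0.295 CPM with vehicle (SD, n = 3) and 8.17 ± 1.45 CPM with AZD1152 (SD, n = 4). It would not change with a split of shared reads between the pair, but it would if such reads were dropped or counted in each gene. Hist1h2bq also shared 14.1% of its 50-base stretches with Hist1h2bk and 12.2% with Hist1h2bj, so the sum does not settle the source of the reads. The Hist1h2bq call held without AZD1152 2 (adjusted p = 0.0401, edgeR) and was lost without any of the other 6 libraries, at 0.0510 to 0.107.

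Hist1h2bc, which carried most of the H2B signal, had a smaller change. It stood at 94.7, 96.0 and 74.1 CPM with vehicle and at 113.1, 108.9, 120.1 and 129.8 CPM with AZD1152. The groups did not overlap, vehicle 3 was the lowest and AZD1152 4 the highest, and the log2 fold change was 0.42 ± 0.11 with an adjusted p of 0.0463 by edgeR. Without any 1 of the 7 libraries it was not called, at adjusted p of 0.0512 to 0.131, and without vehicle 3 the log2 fold change was 0.31. With library totals it was 0.27 (adjusted p = 0.102, edgeR). Hist2h2be, an H2B gene in the cluster on chromosome 3, stood at 8.26 to 10.9 CPM with vehicle and 10.02 to 12.3 CPM with AZD1152, with overlapping groups and a log2 fold change of 0.28 ± 0.14. Hist1h2be and Hist1h2bk had log2 fold changes of 0.24 ± 0.28 and -0.06 ± 0.36 and overlapping groups.

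The clustered H1, H2A and H3 genes had no call. Hist1h1c, the second clustered gene by counts, stood at 83.2, 93.0 and 89.6 CPM with vehicle and at 86.5, 78.4, 90.8 and 108.7 CPM with AZD1152. The AZD1152 libraries spanned the whole vehicle range, and the log2 fold change was 0.04 ± 0.11. Hist1h1e, another linker histone gene, stood at 0.798 to 1.40 CPM with vehicle and at 3.14, 0.730, 1.34 and 2.76 CPM with AZD1152. AZD1152 1 and 4 were high and AZD1152 2 was below every vehicle library, with a log2 fold change of 0.90 ± 0.49. Its exons overlap those of Hist1h2be on the same strand, so reads of these 2 genes cannot be told apart where they overlap.

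Hist2h3c2, the single clustered H3 gene tested, stood at 0.333 to 0.989 CPM with vehicle and 0.920 to 1.59 CPM with AZD1152, with overlapping groups and a log2 fold change of 0.74 ± 0.41. Among the H2A genes, Hist3h2a had the lowest estimate of all 23 genes, at 1.03 to 1.86 CPM with vehicle and 0.725 to 1.34 CPM with AZD1152 and a log2 fold change of -0.50 ± 0.32. Its exons overlap those of Trim17. Hist1h2ac was near the floor of detection, at 0.128 to 0.814 CPM over all libraries, with a log2 fold change of 0.24 ± 0.63. In these low genes, estimates larger than their standard errors, such as those of Hist2h3c2 and Hist3h2a, were also not called. With standard errors of this size, differences as large as these estimates could be missed. The part of depth in these errors was not tested.

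**Figure D3:**
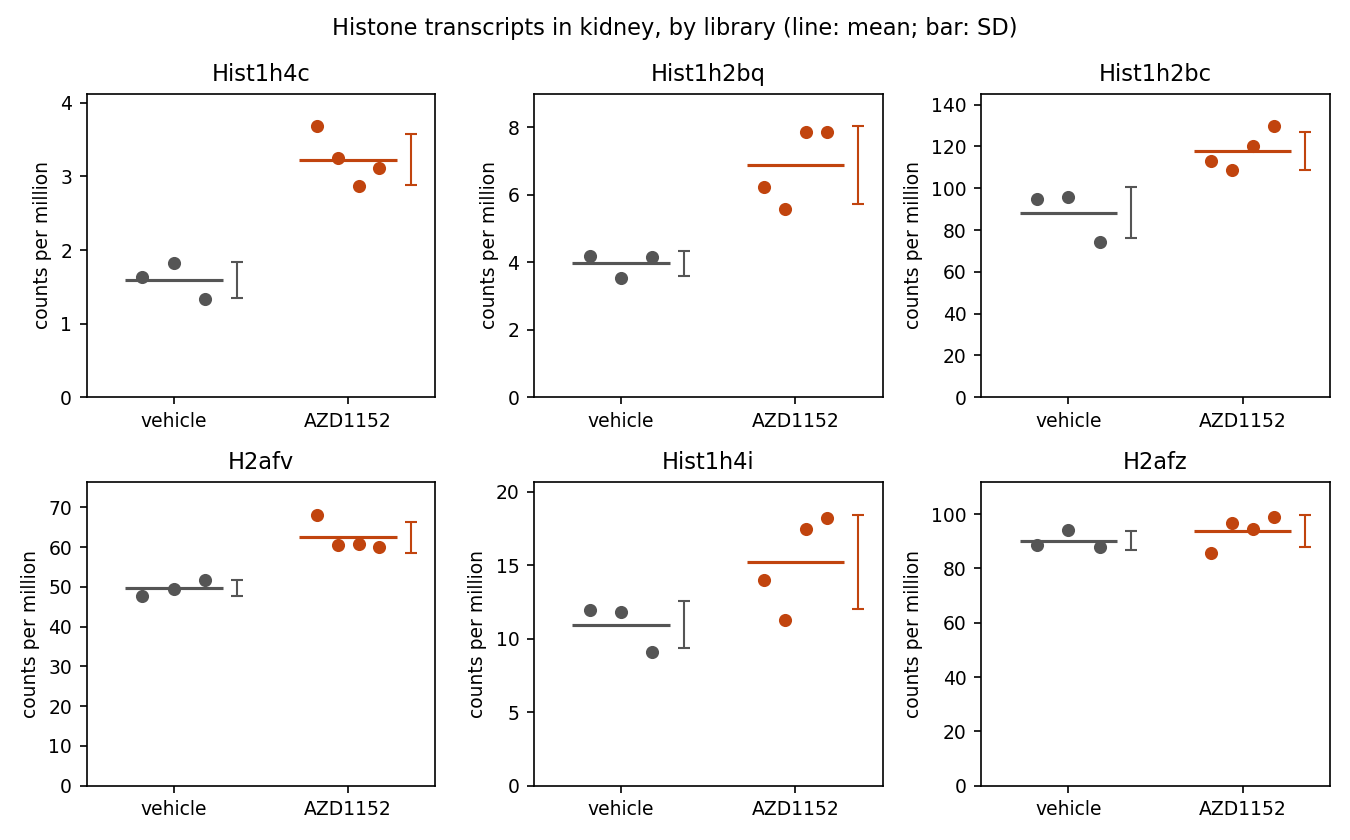
Each panel shows 1 histone gene in CPM on an axis from 0, with a point for each library (3 vehicle in grey, 4 AZD1152 in orange), a line for the mean and a bar for the SD. The groups do not overlap in Hist1h4c, Hist1h2bq, Hist1h2bc and H2afv, and they overlap in Hist1h4i and H2afz.

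Among the variant genes, H2afv was called and its paralogue H2afz was not. The pair codes for 2 closely similar forms of H2A.Z, a variant placed at promoters by exchange complexes. H2afv stood at 47.8, 49.5 and 51.8 CPM with vehicle and at 68.2, 60.5, 60.9 and 60.1 CPM with AZD1152. The groups did not overlap, AZD1152 1 stood above the other 3, and the log2 fold change was 0.33 ± 0.07 with an adjusted p of 0.0307 by edgeR. Without any 1 of the 7 libraries the call was lost, at adjusted p of 0.0519 to 0.0966, and with library totals the log2 fold change was 0.18 (adjusted p = 0.202, edgeR). H2afz stood at 87.8 to 94.2 CPM with vehicle and 85.5 to 98.9 CPM with AZD1152, overlapping, with a log2 fold change of 0.06 ± 0.07.

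The ratio of H2afz to H2afv counts within a library does not depend on scaling. It was 1.86, 1.90 and 1.69 with vehicle and 1.25, 1.60, 1.55 and 1.64 with AZD1152. The groups did not overlap, with AZD1152 1 the lowest, and the mean log2 ratio differed by -0.27. The two-sided exact permutation test gave p = 0.0571, or 0.0857 adjusted over the 3 ratios tested, where the smallest p that 35 arrangements allow is 0.0286. The difference between the paralogues therefore did not pass the threshold.

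The other H2A variants were not called. H2afy and H2afy2 code for the macroH2A proteins, which carry a large extra domain. H2afy stood at 63.4 to 73.1 CPM with vehicle and 55.6 to 66.3 CPM with AZD1152, with a log2 fold change of -0.11 ± 0.08, and H2afy2 stood at 9.18 to 9.87 CPM and 7.27 to 9.37 CPM, with -0.21 ± 0.13. Both pairs of groups overlapped, and the log2 ratio of H2afy to H2afy2 differed by 0.11 (exact permutation p = 0.514). H2afx, whose product is phosphorylated at DNA breaks, stood at 7.21 to 9.69 CPM with vehicle and 7.29 to 7.78 CPM with AZD1152, and its log2 fold change was -0.15 ± 0.14. H2afj stood at 8.55 to 12.0 CPM with vehicle and 9.82 to 15.9 CPM with AZD1152, and its log2 fold change was 0.35 ± 0.18, close in size to that of H2afv but with a larger standard error.

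H3f3a and H3f3b code for the same replication-independent H3 protein. H3f3b was the histone gene with the highest CPM, at 283.7, 276.1 and 289.8 CPM with vehicle and 259.9, 254.1, 271.7 and 253.0 CPM with AZD1152. All 4 AZD1152 libraries lay below all 3 vehicle libraries, yet the log2 fold change was -0.13 ± 0.07 with an adjusted p of 0.301 by edgeR. With scaling by library totals alone it was -0.28 and called (adjusted p = 0.0475, edgeR). H3f3a stood at 55.3 to 69.4 CPM with vehicle and 62.3 to 68.5 CPM with AZD1152, with a log2 fold change of 0.11 ± 0.09. The ratio of H3f3a to H3f3b overlapped between groups, and its mean log2 value differed by 0.24 (two-sided exact permutation p = 0.0571, adjusted 0.0857). H1f0 stood at 193.9 to 226.6 CPM with vehicle and 220.1 to 244.7 CPM with AZD1152, overlapping, with a log2 fold change of 0.11 ± 0.08.

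The clustered and the variant genes were also compared as sums within each library. The clustered sum was 220.8, 231.2 and 201.3 CPM with vehicle and 257.4, 233.4, 265.1 and 300.2 CPM with AZD1152. AZD1152 2 lay just above vehicle 2, AZD1152 4 was the highest, and the ratio of the means was 1.21. The variant sum was 791.3 ± 14.1 CPM with vehicle (SD, n = 3) and 802.1 ± 17.5 CPM with AZD1152 (SD, n = 4), a ratio of 1.01. Without Hist1h2bc and Hist1h1c, the remaining 65 clustered genes summed to 40.9 ± 2.87 and 55.0 ± 6.65 CPM, a ratio of 1.34.

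The ratio of clustered to variant counts within each library was 0.285, 0.288 and 0.253 with vehicle and 0.317, 0.296, 0.323 and 0.382 with AZD1152. The groups did not overlap, and AZD1152 2 was closest to the vehicle libraries. As a share of all counts, the clustered genes made up 0.0224% to 0.0239% with vehicle and 0.0215% to 0.0289% with AZD1152, and these ranges overlapped, with AZD1152 2 the lowest of all 7. The variant genes made up 0.0804%, 0.0831% and 0.0887% of all counts with vehicle and 0.0789%, 0.0726%, 0.0798% and 0.0756% with AZD1152. Every AZD1152 library lay below every vehicle library on that scale, so the higher clustered-to-variant ratio went with a lower variant share where no TMM factor was applied. By class, the sums had AZD1152 to vehicle ratios of 1.52 for H3, 1.44 for H4, 1.33 for H2B, 1.04 for H1 and 0.846 for H2A, with only 201 counts behind the H2A value and 186 behind the H3 value. No test was made on these sums, because the members of a sum were chosen as a list.

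**Figure D4:**
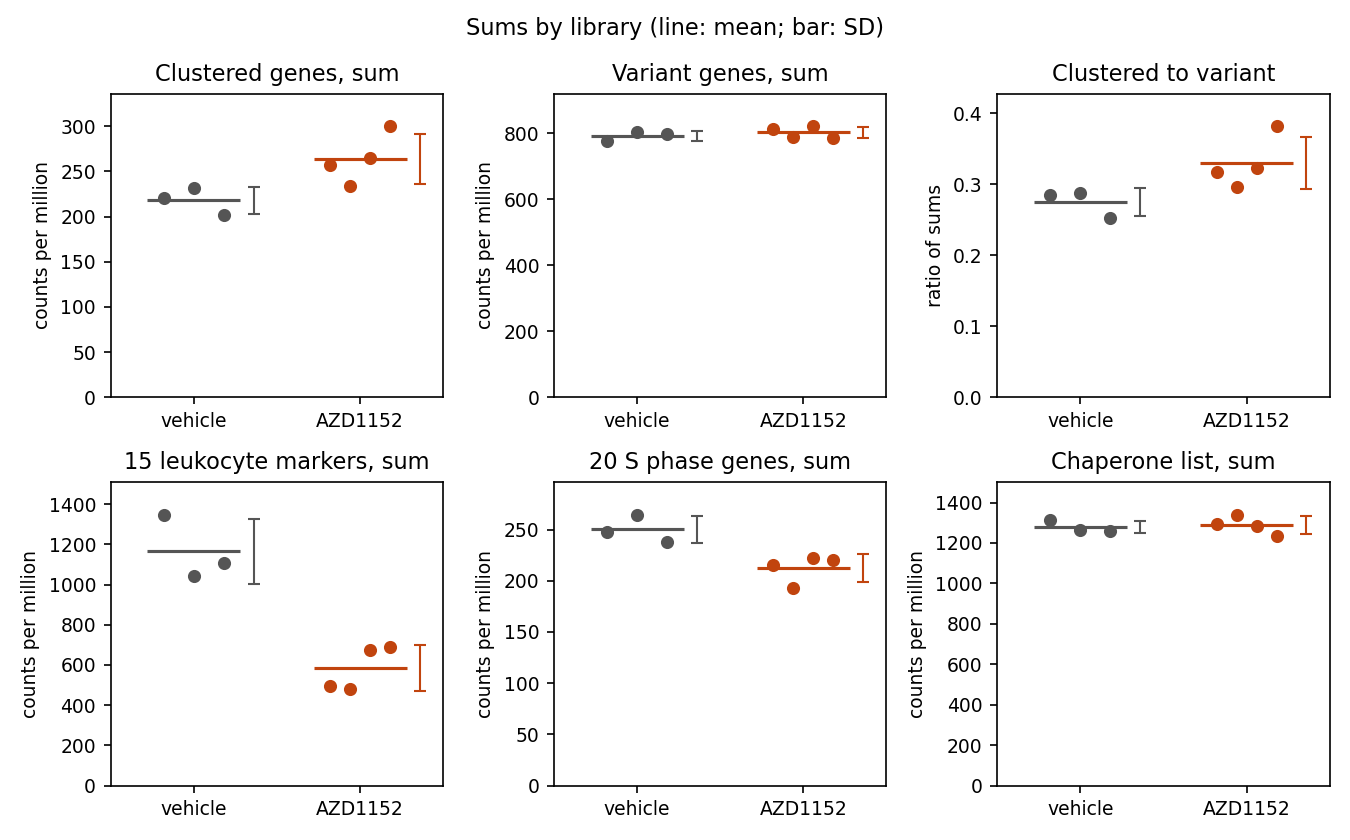
Panels show sums over gene lists in CPM, and in the upper right the ratio of clustered to variant sums, with a point for each library, a line for the mean and a bar for the SD. The points of the 2 groups do not overlap for the clustered sum and the ratio (AZD1152 above vehicle) or for the 15 leukocyte markers and 20 S phase genes (AZD1152 below), and they overlap for the variant and chaperone sums.

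Promoters of the clustered genes were compared because the genes called differ in class. The RefSeq table (GRCm38.p6) matched 74 of the 80 genes, and the 250 bases before each start were searched on both strands for GGTCCG (the core of the H4 subtype element), ATTTGCAT (the octamer), CCAAT and TATAAA. No motif contains another, although the ends of neighbouring matches can share bases. GGTCCG was found in 9 of 12 clustered H4 promoters (75.0%) and in 6.72% of all 32851 promoters. The octamer was found in 7 of 18 H2A promoters (38.9%), 7 of 16 H2B promoters (43.8%) and 1.6% of all. Some H2A and H2B genes have overlapping windows, such as Hist1h2aa and Hist1h2ba, so the same octamer can be counted in both classes. CCAAT was found in 51 of 62 clustered promoters (82.3%) against 33.8% of all, but in only 3 of the 12 H4 promoters, and TATAAA in 46.8% of clustered promoters against 12.4%. Of 12 variant promoters, 8 held CCAAT (66.7%), 3 held GGTCCG (25.0%), 1 held the octamer and 1 held TATAAA. Hist1h2bc had no entry. Below are the 150 bases before the start for 3 called genes and for Hist1h4i, with matches in capitals.
Hist1h4c (chr13:23698459-23698608, minus strand): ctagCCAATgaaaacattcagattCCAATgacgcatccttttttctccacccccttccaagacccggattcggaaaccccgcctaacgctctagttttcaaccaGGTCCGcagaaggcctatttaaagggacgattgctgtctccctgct
Hist1h4i (chr13:22041363-22041512, minus strand): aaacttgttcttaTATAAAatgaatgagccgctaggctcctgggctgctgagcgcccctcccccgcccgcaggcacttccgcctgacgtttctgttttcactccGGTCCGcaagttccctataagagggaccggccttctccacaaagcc
Hist1h2bq (chr13:21810200-21810349, minus strand): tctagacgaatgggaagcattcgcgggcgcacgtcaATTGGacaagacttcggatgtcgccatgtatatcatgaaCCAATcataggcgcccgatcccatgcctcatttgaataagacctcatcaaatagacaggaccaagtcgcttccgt
H2afv (chr11:6444444-6444593, minus strand): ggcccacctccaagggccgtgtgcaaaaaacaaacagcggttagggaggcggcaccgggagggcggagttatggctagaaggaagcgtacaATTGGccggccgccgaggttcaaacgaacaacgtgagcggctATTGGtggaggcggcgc

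In these stretches ATTGG is CCAAT on the other strand. The H4 promoters of Hist1h4c and Hist1h4i both held GGTCCG, although the first gene was called higher and the second was not. Hist1h4h, the remaining H4 gene tested, held none of the motifs searched. Its window ended in GGTCC at the start, so a match running past that edge would be missed. Hist1h2bq and H2afv, which were both called, shared CCAAT matches alone, a motif that 33.8% of all promoters hold. A match is a run of letters in the sequence, and no binding was measured here.

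The genes that produce and place histones were compared from 2 lists. Of 13 genes for histone mRNA production, 12 were tested and 0 were called by edgeR or limma-voom, and 1 had an unadjusted p under 0.05, against 24.8% of all genes. This was Npat, which activates clustered histone genes at the start of S phase, at 21.4 to 23.4 CPM with vehicle and 15.3 to 19.6 CPM with AZD1152, a log2 fold change of -0.37 ± 0.11 (adjusted p = 0.0701, edgeR). DESeq2 called Npat lower (adjusted p = 0.0354), as did edgeR with library totals (0.0303). Slbp, which binds the stem-loop, stood at 14.9 to 20.8 CPM and 15.9 to 18.1 CPM with overlapping groups and a log2 fold change of -0.11 ± 0.13. The list's median log2 fold change was 0.02, against -0.0006 over all genes tested.

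Of 26 histone chaperones and exchange factors, all tested, 0 were called by edgeR or limma-voom and 3 had an unadjusted p under 0.05, against 24.8% of all genes, and the list's median on the log2 scale was -0.01. The lowest estimates were those of Chaf1b and Asf1b. Chaf1b, a subunit of the chromatin assembly factor that deposits H3 and H4 at replication forks, stood at 2.68, 2.79 and 2.99 CPM with vehicle and at 1.99, 0.730, 1.34 and 1.49 CPM with AZD1152, without overlap, and its log2 fold change was -1.02 ± 0.30 (adjusted p = 0.0758, edgeR, and 0.0332 by DESeq2). Asf1b, which hands H3 and H4 to that factor, had -1.02 ± 0.43 and Chaf1a, its largest subunit, had -0.47 ± 0.26, both with overlapping groups. Anp32e, a chaperone that removes H2A.Z, had 0.05 ± 0.07.

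The S phase genes mostly had estimates below 0. Of 20 genes, 1 was called lower and 0 higher, where 4.81% of all genes were called lower. The median of their log2 fold changes was -0.32, and 3 estimates were above 0. DESeq2 and limma-voom each called 4 lower, Mcm3, Mcm5, Rrm2 and Uhrf1. The share of 4.81% is that of edgeR, and DESeq2 called more genes lower over the whole table. The called gene was Mcm3, a subunit of the replicative helicase, at 10.1 to 14.0 CPM with vehicle and 5.64 to 7.86 CPM with AZD1152, a log2 fold change of -0.73 ± 0.17 (adjusted p = 0.0347, edgeR). Without any 1 of the 7 libraries Mcm3 was not called, at adjusted p of 0.0505 to 0.0892. Pcna, the sliding clamp, had -0.10 ± 0.10. The S phase sum was 238 to 265 CPM with vehicle and 193 to 222 CPM with AZD1152, without overlap.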

How the data were processed

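Whole-number read counts per gene were deposited by the authors without normalization. Per the submitters' processing notes, the tools named were CASAVA, HISAT2 2.0.5, DESeq2 and DESeq, with genome build GRCm38. For the read counter, its strand setting, its treatment of reads with several matches and the annotation, the answer is not given in the sources used here. Groups came from the sample titles, and the design text gives separate mice. No batch is labelled. Between any pair of libraries the chi-square of the counts was at least 9.97 per degree of freedom, so no library was a copy of another.

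Counts were filtered with filterByExpr, scaled by TMM and tested on group alone with edgeR 4.0.16 (R 4.3.3) by the quasi-likelihood test, two-sided, with Benjamini-Hochberg adjustment over 15774 genes and a threshold of 0.05. A standard error is the absolute log2 fold change over the root of the F statistic. The biological coefficient of variation was 0.168. Reads amplified by PCR carried no molecular identifiers and may repeat a molecule, so floors cover counting error only. Names, coordinates and exon lengths came from GENCODE M21, which named 53360 of 53465 genes. On simulated counts for this comparison (3 runs, 15554 genes), 22.8% of genes changed 1.5-fold and 69.7% of those changed 2-fold were recovered, with 6.03% false calls.

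The members and the lists were chosen with earlier results of these data known. Genes named were all called members, all tested variants, the clustered genes highest per kilobase in each class or with the largest fold changes, and the called members of the lists, up to 4 each, with Slbp, Npat, Asf1b and Chaf1a; other genes were named after their values were seen. Alternatives were RLE, upper-quartile and library-total scaling, no filter, a stricter filter (3 libraries at a CPM of 1, mean CPM of 2), DESeq2 1.42.0, limma-voom 3.58.1, a replicate block and leaving out each library, and, chosen after seeing the data, TMM factors that left out the 50 most abundant genes and those of immunoglobulins and mitochondria.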

Additional observations from a re-analysis of the deposited data

Results flagged for a closer look

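H2afv in AZD1152 1 stood at 68.2 CPM, apart from the other 3 AZD1152 libraries at 60.1 to 60.9 CPM. Its gap to the nearest of them was 0.904 of the range of the group. Such a check marks about 1 in 20 groups by chance, and only groups of 4 were checked. Without AZD1152 1 the log2 fold change of H2afv was 0.28 and its adjusted p was 0.0536 by edgeR.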

How the results depend on the processing

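The 4 histone calls kept their direction under all alternatives run and stayed called under RLE and upper-quartile scaling, both filters, DESeq2, limma-voom and the added TMM factors. Leaving out 1 library gave 0 to 1 histone genes called higher (0 to 1 clustered, 0 variant, 0 lower), 60 to 475 higher and 163 to 619 lower over the whole table, a clustered median log2 fold change of 0.19 to 0.45 and a variant median of 0.021 to 0.078. Scaling by library totals shifted the median of all genes by -0.15 and gave 1 histone gene higher (Hist1h4c, adjusted p = 0.0353, edgeR), 1 clustered and 0 variant, and 1 lower, the variant H3f3b, with 232 genes higher and 1482 lower in the table. There the clustered median was 0.20, the variant median reversed to -0.094, and H3f3a (-0.043), Hist1h1c (-0.11), H2afz (-0.094), H1f0 (-0.039), Hist1h2br (-0.061) and Anp32e (-0.098) reversed. DESeq2 called 950 genes higher and 1183 lower, and no filter gave a clustered median of 0.21 with 27907 genes tested. For these changes the cause was not tested. Leaving out 1 library also reversed Hist1h1c (-0.066 to 0.096), Hist1h2br (-0.064 to 0.19), Hist1h2bk (-0.28 to 0.19) and Hist1h2ac (-0.078 to 0.56, tested in 4 of 7 fits).

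Titles carry replicate numbers in both groups, but nothing says that a number marks a shared litter or day, and deviations of same-numbered libraries correlated at -0.288, 0.209 and -0.119, so the numbers do not pair them. With a replicate block over numbers 1 to 3, 0 histone genes were called higher (0 clustered, 0 variant), 64 genes were higher and 148 lower in the table, the variant median was 0.020, and Hist1h1c (-0.067) and Hist1h2bk (0.083) reversed. The same 6 libraries without a block (an alternative added after seeing the data) gave 0 histone calls (0 clustered, 0 variant), 107 genes higher and 336 lower, a variant median of 0.021, Hist1h1c at -0.066 and Hist1h2bk at 0.060. The 53 clustered genes below the filter were not tested, and the part of depth in this was not tested.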
